A study of Mus musculus with 14 samples.

Results

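The genes described here are the NRF2 axis, the glutathione and thioredoxin enzymes, and the other antioxidant enzymes in the hippocampus of mice kept under intermittent or sustained hypoxia. They were chosen by symbol alone, as every row of the deposited count table named for NRF2 or KEAP1, for glutathione synthesis or use, or for a peroxiredoxin, thioredoxin, glutaredoxin, superoxide dismutase, catalase, heme oxygenase, quinone reductase, ferritin, metallothionein, methionine sulfoxide reductase or selenoprotein. These symbols matched 57 of the 7756 genes in the table, and 54 of them passed the filter on low counts (a group mean of 40 or more in all 3 groups). The table is itself a selection: by the methods it holds genes above a low count limit whose processed signal, a log2 level relative to control, reached 0.25 in size. The 57 are therefore not all antioxidant genes expressed in the hippocampus, and genes that stayed close to control may have been left out before the counts were deposited. All mice were wild-type (WT) male C57BL/6J animals, 8 weeks old at the start. The control group (4 libraries) breathed 21% oxygen for 28 days. The IH group (5 libraries) breathed oxygen that cycled between 10% and 21% every 2 min, for 8 h per day over 28 days. The SH group (5 libraries) was held at 10% oxygen for 8 h per day over 28 days. By the methods, hippocampi were taken after the 28 days had ended and after behavioral tests, which included a foot shock. For the sequenced controls the methods name the same strain, age and housing duration. IH serves as a model of the repeated desaturation of sleep apnea, without its airway obstruction or carbon dioxide retention. The control mice were handled in a preliminary experiment, so that hypoxia and experiment cannot be told apart in either comparison with control. IH and SH can be compared within 1 experiment. By the methods, however, they used different gas systems, and the SH cages stood in an acrylic box with a running fan. Exposure pattern and apparatus therefore cannot be told apart between IH and SH.

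NRF2, encoded by Nfe2l2, is a transcription factor whose protein is kept low by KEAP1, which presents it for degradation. When reactive oxygen species or electrophiles modify KEAP1, NRF2 accumulates and binds antioxidant response elements in genes of glutathione synthesis, thioredoxin reduction, quinone reduction, heme breakdown and iron storage. In the brain much of this defense is carried by glia, and selenium-containing enzymes form a branch of it that neurons depend on. Since NRF2 is controlled mainly as a protein, the level of its mRNA does not measure its activity.

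The libraries held 7203659 to 11777101 counts, of which the 57 genes took 0.719% to 0.864%. Hippocampal neuron markers (10 of 10 listed genes in the table) summed to 22858 to 33504 normalized counts, with none at 0. A normalized count is the count scaled for library size and composition by TMM. Choroid plexus markers (12 of 12, none at 0) varied most, from 4040 to 5448 in controls 1 to 3 and 123086 in control 4, from 5078 to 74473 in IH and from 4691 to 91304 in SH. In 6 libraries (control 4, IH 1 and 4, SH 1, 2 and 5) the sum was above 20000. Oligodendrocyte markers (9 of 10 in the table) summed to 75922 to 112291 in control, 87962 to 199225 in IH and 86600 to 149827 in SH. Markers of microglia (6 of 10) summed to 4866 to 5404, 4494 to 5609 and 3672 to 4535 in the same order, and those of endothelium (9 of 10) to 5527 to 6379, 6376 to 6507 and 6452 to 7106. For astrocytes only Gfap and S100b of 10 listed markers were in the table, so that astrocyte content was hardly measured (7847 to 12147 normalized counts). Erythrocyte genes (5 of 5) summed to 2926 to 3189, 1649 to 2304 and 2203 to 3081. Of single markers, 4 of 4 erythrocyte genes tested were lower in IH, 3 of 6 microglial markers were lower in SH, and 1 and 2 of 9 endothelial markers were higher in IH and SH. The oligodendrocyte and neuron markers each had 1 higher in either group. Between IH and SH, 1 of 6 microglial markers was higher in IH and 1 of 9 endothelial markers was lower in IH. In whole tissue, fewer cells of a type and less RNA per cell cannot be told apart, and the part of these cell types in the results below was not tested unless a value says so.

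Against control, 3 members were higher and 4 lower in IH, and 4 were higher and 9 lower in SH. These 7 of 54 members in IH, or 13.0%, stand beside 10.9% of all 7338 genes tested at the same adjusted p under 0.05 (6.08% higher and 4.85% lower). The 13 of 54 in SH, or 24.1%, stand beside 20.6% (10.2% higher and 10.5% lower). Both shares were near those of all genes, so that the counts are not a result about the antioxidant genes as a list. Since the genes of the table were kept for a distance from control, these shares and the adjusted p-values apply to the selected genes and not to all expressed genes. On the scale of the methods as rebuilt from the counts, 1 or more libraries lay at least 0.25 from the control mean for 95.4% of the genes tested and 85.2% of the members, and the mean of IH or SH did so for 50.7% and 55.6%. The median log2 fold change of the members was -0.10 in IH and -0.096 in SH, beside -0.015 and 0.004 for all genes tested. Of the 54 members, 35 and 36 had a negative sign, beside 3792 and 3638 of all 7338 genes tested. Without IH 2 the IH median was -0.057, and without the 6 libraries rich in choroid plexus markers the SH median was -0.153. With the trends of the fold change on transcript length and GC content removed, 3 members passed in IH and 5 in SH, beside 6.06% and 6.88% of all genes, and the medians were -0.02 and -0.033. Between IH and SH 2 members differed, both higher in IH, or 3.70%, beside 2.37% of all genes (1.47% higher and 0.899% lower). By the limits of the study, an absolute log2 fold change above 0.58 with an unadjusted p under 0.05, 2 members passed in IH (Gstp-ps and Sod3), 0 in SH and 1 in IH vs. SH (Gstp-ps), beside 2.68%, 2.71% and 0.981% of all genes. No member passed without the 6 libraries rich in choroid plexus markers, where 11, 9 and 6 members had an unadjusted p under 0.05 in IH vs. control, SH vs. control and IH vs. SH, and where 51, 26 and 0 of all genes passed with edgeR. With single libraries left out, the IH count was 1 without control 1 or 2, 3 or 4 without control 3 or 4 or IH 1, 2, 4 or 5, and 11 without IH 3. The SH count was 4 to 6 without control 1 or 2 or SH 2 or 5, and the count between IH and SH was 0 or 1 without control 2, IH 2, 3, 4 or 5, or SH 2, 3, 4 or 5. The calls over all genes moved too, from 802 in IH to 408 without control 1, 386 without control 2 and 979 without IH 3, from 1514 in SH to 979 without control 2, and from 174 between IH and SH to 88 without SH 4. The comparisons with control share the same 4 libraries, and their values are given side by side.

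**Figure D1:**
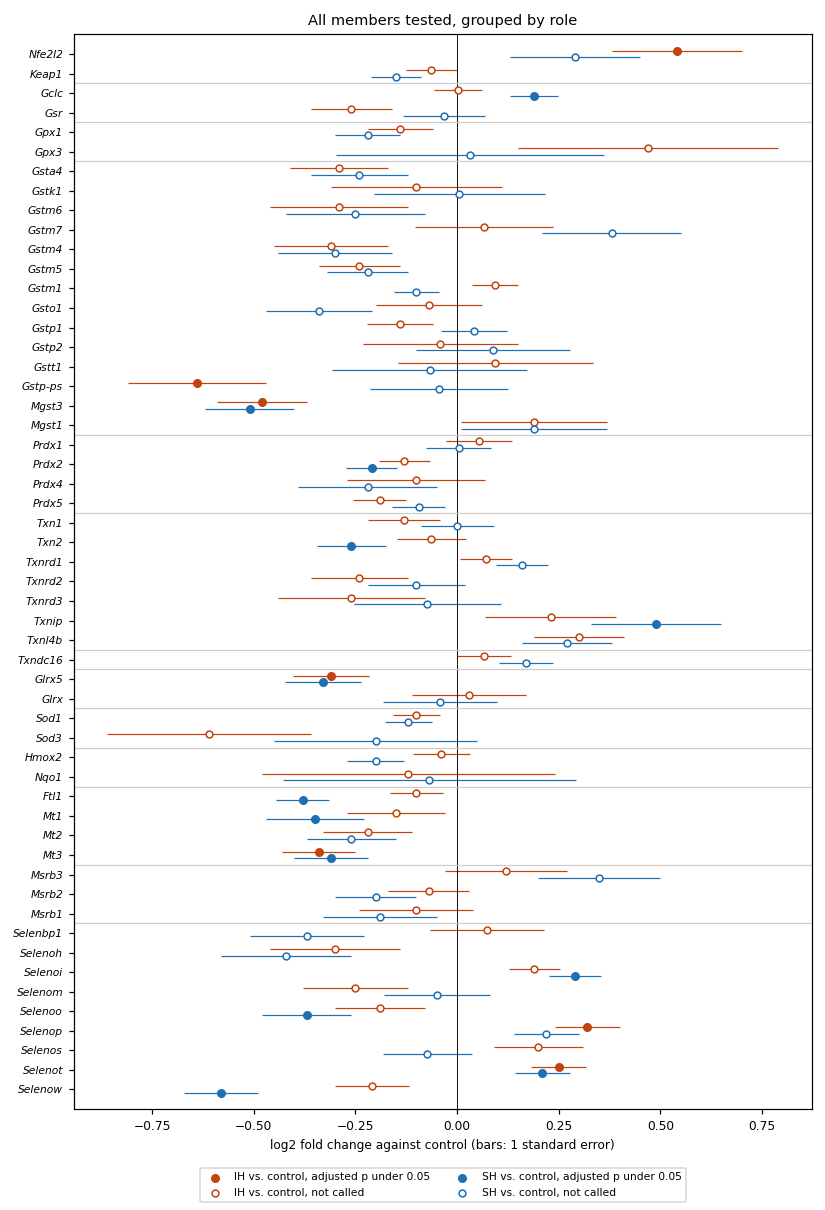
The x axis gives the log2 fold change of each of the 54 members tested against control (IH in orange, SH in blue), and bars give 1 standard error. Members are grouped by role with grey lines between groups, filled points have an adjusted p under 0.05, and most points lie left of 0.

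Nfe2l2, at chr2:75504739-75534985 (GRCm39, minus strand), was the axis gene that passed, and it rose in IH. In single libraries the normalized counts were 203, 280, 260 and 383 in the control group, 391, 426, 360, 419 and 450 in the IH group, and 353, 298, 269, 394 and 408 in the SH group. Every IH library was above the first 3 controls, and control 4, the one rich in choroid plexus markers, lay within the IH range. The log2 fold change was 0.54 (SE 0.16, adjusted p = 0.0432, edgeR) in IH and 0.29 (SE 0.16, adjusted p = 0.204) in SH. The difference between IH and SH was 0.25 (SE 0.15, adjusted p = 0.483). The IH call was lost without control 1, 2 or 3 or IH 1, 2, 4 or 5, with log2 fold changes of 0.41 to 0.56 and adjusted p of 0.0646 to 0.127. It was also lost with the GC and length trends removed (0.47, adjusted p = 0.108). In SH, the fold passed without control 4 (0.48, adjusted p = 0.045). The 6 choroid-rich libraries left out together gave 0.74 in IH (adjusted p = 0.0919).

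Keap1, the adaptor that holds NRF2 for ubiquitination, had normalized counts of 1728, 1540, 1551 and 1544 in control, 1509, 1550, 1530, 1589 and 1438 in IH, and 1604, 1374, 1405, 1427 and 1382 in SH. The IH libraries overlapped the controls, and in SH only replicate 1 reached them. Against control, the log2 fold change was -0.063 (SE 0.062, adjusted p = 0.508) in IH and -0.15 (SE 0.062, adjusted p = 0.107) in SH. Without SH 1, the SH value was -0.19 and passed (adjusted p = 0.03, edgeR). With the GC and length trends removed the sign turned in both comparisons, to 0.072 and 0.051, and neither passed. Nfe2l1 and Nfe2l3 were not analysed here.

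Of the 2 genes of glutathione synthesis and reduction, Gclc rose in SH. Gclc encodes the catalytic subunit of glutamate-cysteine ligase, the rate-limiting enzyme of glutathione synthesis and a textbook NRF2 target. Its normalized counts were 1188, 1201, 1312 and 1186 in control, 1133, 1226, 1269, 1218 and 1273 in IH, and 1359, 1432, 1380, 1323 and 1453 in SH. Every SH library lay above every control and IH library, although the change was small (log2 fold change 0.19, SE 0.059, adjusted p = 0.0372). In IH the value was 0.002 (SE 0.059, adjusted p = 0.985). The difference between IH and SH was -0.18 (SE 0.055, adjusted p = 0.103, edgeR). This SH call was lost without control 1, 2 or 4 or SH 2, 3 or 5 (0.17 to 0.19, adjusted p = 0.0555 to 0.0965), with the trends removed (0.12, adjusted p = 0.196) and under 80th percentile scaling. Gsr, glutathione reductase, had log2 fold changes of -0.26 (SE 0.10, adjusted p = 0.0963) in IH and -0.032 (SE 0.10, adjusted p = 0.845) in SH.

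The glutathione peroxidases, which reduce peroxides with glutathione, gave no call in either comparison with control (0 of 2 tested by edgeR and by DESeq2, with an unadjusted p under 0.05 for 0 in IH and 1 in SH). Gpx1, the abundant cytosolic form, had 785 ± 60.8 normalized counts in the control mice (SD, n = 4), 715 ± 57.9 in IH (n = 5) and 673 ± 44.8 in SH (n = 5). Its log2 fold change was -0.14 (SE 0.080, adjusted p = 0.262) in IH and -0.22 (SE 0.080, adjusted p = 0.0606) in SH. Without control 1, IH 1 or SH 4 and under 80th percentile scaling the SH value passed (-0.27 to -0.22, adjusted p = 0.0436 to 0.0498). Gpx1 has 1 copy whose aligned coding sequence is identical, so that its counts are uncertain. Gpx7 was under the filter, with 33.0 counts on average in its lowest group.

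Among the glutathione transferases, which conjugate glutathione to electrophiles, Mgst3 fell in both hypoxia groups. Mgst3, at chr1:167196550-167221687 (minus strand), encodes a microsomal transferase that also reduces lipid peroxides. In single libraries the normalized counts were 819, 781, 813 and 839 in control, 550, 625, 719, 556 and 477 in IH, and 640, 576, 627, 471 and 538 in SH. No hypoxia library reached the lowest control. On the log2 scale the change was -0.48 (SE 0.11, adjusted p = 0.0138) in IH and -0.51 (SE 0.11, adjusted p = 0.00601) in SH. Both calls held with each library left out and with the GC and length trends removed (-0.44, adjusted p = 0.0179, and -0.47, adjusted p = 0.012). Both were lost without the 6 choroid-rich libraries (-0.41, adjusted p = 0.189, and -0.55, adjusted p = 0.13), and neither value reached the fold limit of the study. The difference between IH and SH was 0.035 (SE 0.11, adjusted p = 0.939).

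Gstp-ps, a processed pseudogene of the pi class at chr1:191758120-191758750 (minus strand), was lower in IH. Its counts are uncertain, since it is 99.2% identical to its closest parent gene and reads can be shared with Gstp1 and Gstp2. The normalized counts were 167, 162, 132 and 143 in control, 99.3, 77.8, 128, 78.3 and 102 in IH, and 112, 139, 151, 170 and 161 in SH. All IH libraries were below all controls, and the SH libraries overlapped the controls. The fitted log2 fold change was -0.64 (SE 0.17, adjusted p = 0.027) in IH and -0.044 (SE 0.17, adjusted p = 0.878) in SH. The IH call was lost without control 1 or 2 or IH 2 or 4 (-0.60 to -0.57, adjusted p = 0.0595 to 0.0823) and once the trends were removed (-0.46, adjusted p = 0.112). The difference between IH and SH was -0.59 (SE 0.16, adjusted p = 0.0712, edgeR), and it passed in DESeq2 (-0.59, adjusted p = 0.0238) and after the trends were removed (-0.62, adjusted p = 0.04).

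The other 12 transferases tested did not pass in either comparison with control. Gstm1, the most abundant of them and the main mu class form of the brain, had 3680 ± 130 normalized counts in the control mice, 3928 ± 284 in IH and 3427 ± 117 in SH. Its log2 fold changes were 0.094 (SE 0.056, adjusted p = 0.266) and -0.10 (SE 0.056, adjusted p = 0.199), and the difference between IH and SH was 0.20 (SE 0.053, adjusted p = 0.0658). After removal of the trends, Gstm1 passed in IH (0.19, adjusted p = 0.0163) and also against SH (0.17, adjusted p = 0.0325), and the sign in SH turned to 0.02. DESeq2 also called it between IH and SH (adjusted p = 0.0264). Gstp1, which was not called on the counts as deposited (0.042 in SH, SE 0.081, adjusted p = 0.742), passed in SH with the trends removed (0.25, adjusted p = 0.0323). Both share sequence with near-identical copies. Gsta3 and Gstt2 were under the filter, with 34.4 and 38.4 counts on average in their lowest group.

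**Figure D2:**
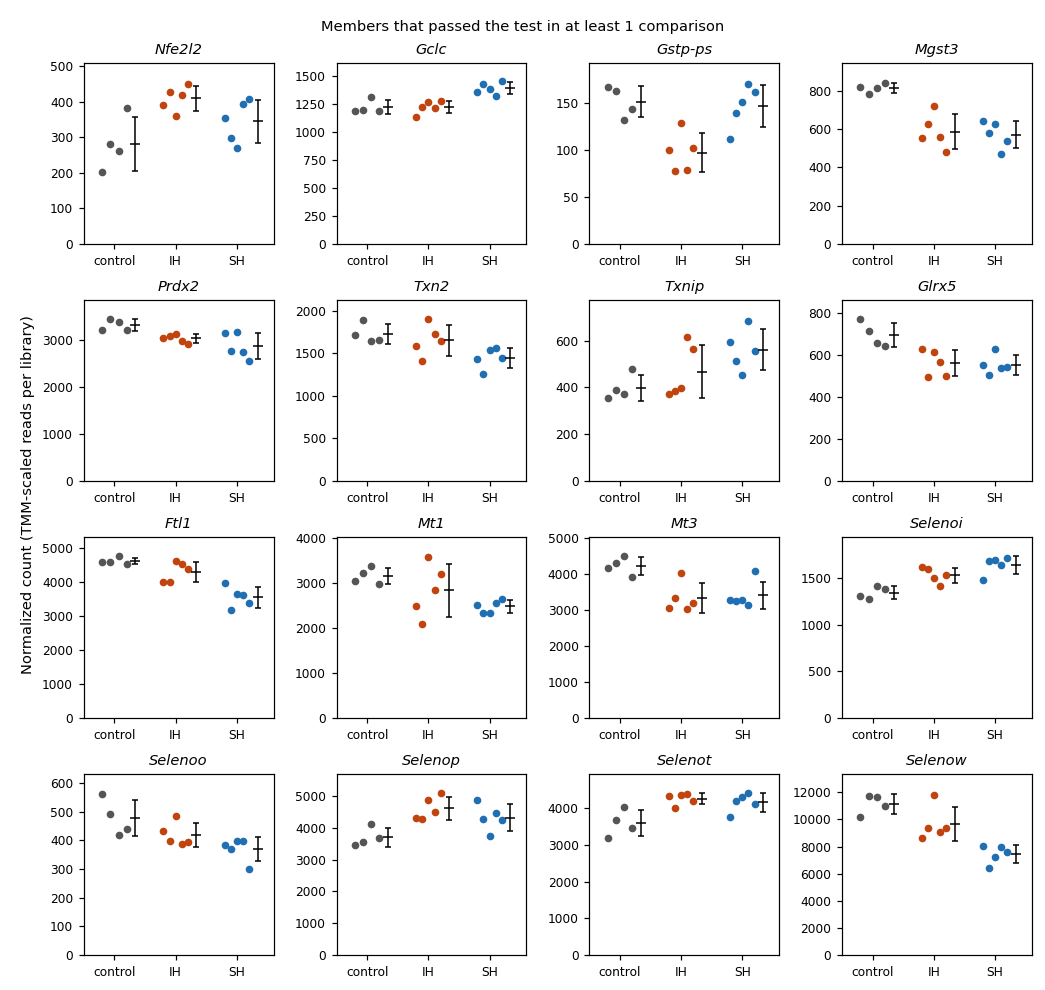
Each panel plots the normalized count (y axis, from 0) of 1 of the 16 members with an adjusted p under 0.05 in at least 1 comparison, with 1 point per library for control (4), IH (5) and SH (5). The black marks are group means with 1 SD. Mgst3 is below control in all hypoxia libraries, and Selenow is lowest in SH.

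The peroxiredoxins, which reduce hydrogen peroxide and are themselves reduced by thioredoxin, gave 1 call, Prdx2 in SH. Prdx2, the main neuronal peroxiredoxin, had normalized counts of 3205, 3445, 3384 and 3214 in control, 3045, 3079, 3127, 2975 and 2901 in IH, and 3136, 2750, 3171, 2745 and 2550 in SH. All 10 hypoxia libraries were below the lowest control. The log2 fold change was -0.21 (SE 0.063, adjusted p = 0.0325) in SH and -0.13 (SE 0.063, adjusted p = 0.179) in IH. In SH the call was lost without any 1 of the 4 controls, IH 4 or SH 2, 4 or 5 (-0.22 to -0.17, adjusted p = 0.051 to 0.0947), and with the trends removed (-0.15, adjusted p = 0.105). Prdx2 has 1 near-identical copy. Prdx1, Prdx4 and Prdx5 lay between -0.22 and 0.054 in both comparisons and did not pass.

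In the thioredoxin system, an inhibitor rose and a mitochondrial member fell in SH. Txnip, at chr3:96465267-96469201, encodes the protein that binds and inhibits thioredoxin and limits glucose uptake. Its normalized counts were 355, 390, 370 and 478 in control, 372, 386, 396, 614 and 563 in IH, and 593, 513, 453, 686 and 558 in SH. In SH 4 of 5 libraries were above every control, and the IH libraries fell on both sides of control 4. Against control, the log2 fold change was 0.49 (SE 0.16, adjusted p = 0.0428) in SH and 0.23 (SE 0.16, adjusted p = 0.346) in IH. The SH call was lost without control 1, 2 or 3 or SH 1, 2, 4 or 5 (0.41 to 0.52, adjusted p = 0.0553 to 0.118), and with the trends removed (0.45, adjusted p = 0.119).

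Txn2, the mitochondrial thioredoxin, had 1717, 1894, 1642 and 1659 normalized counts in the control mice, 1586, 1410, 1901, 1733 and 1642 in IH, and 1430, 1261, 1536, 1561 and 1450 in SH. All SH libraries were below all controls, and IH overlapped both. On the log2 scale the change was -0.26 (SE 0.085, adjusted p = 0.0445) in SH and -0.063 (SE 0.085, adjusted p = 0.641) in IH. This SH call was lost without any 1 of the controls, IH 1 or 4, or SH 1, 2 or 5 (-0.28 to -0.21, adjusted p = 0.0516 to 0.138), and with the trends removed (-0.18, adjusted p = 0.179). The cytosolic Txn1, the thioredoxin reductases Txnrd1, Txnrd2 and Txnrd3 and the splicing factor Txnl4b did not pass. Txndc16, a protein of the endoplasmic reticulum with thioredoxin domains, had log2 fold changes of 0.066 (SE 0.066, adjusted p = 0.517) in IH and 0.17 (SE 0.066, adjusted p = 0.0787) in SH, and the SH value passed under library total scaling (0.19, adjusted p = 0.0444) and without control 3 (0.23, adjusted p = 0.0233).

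Glrx5, a mitochondrial glutaredoxin that takes part in the assembly of iron-sulfur clusters, fell in both hypoxia groups. In single libraries the normalized counts were 771, 718, 660 and 645 in control, 628, 496, 617, 568 and 503 in IH, and 554, 504, 632, 541 and 544 in SH. No hypoxia library reached the lowest control. The fitted log2 fold change was -0.31 (SE 0.093, adjusted p = 0.0423) in IH and -0.33 (SE 0.093, adjusted p = 0.0214) in SH. The IH call was lost without any 1 of the controls, IH 2, 4 or 5, or SH 4 or 5 (-0.35 to -0.26, adjusted p = 0.0504 to 0.131), and the SH call without control 1 or 2 or SH 2 (-0.32 to -0.28, adjusted p = 0.0508 to 0.0777). Both missed the threshold with the trends removed (-0.27, adjusted p = 0.0842, and -0.28, adjusted p = 0.0643). Glrx, the cytosolic glutaredoxin, had 0.03 (SE 0.14, adjusted p = 0.901) and -0.042 (SE 0.14, adjusted p = 0.861).

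Neither superoxide dismutase in the table passed on the counts as deposited (0 of 2 by edgeR and by DESeq2, with 1 at an unadjusted p under 0.05 in each comparison with control). Sod3, the extracellular enzyme, had normalized counts of 293, 312, 203 and 402 in control, 274, 177, 178, 218 and 143 in IH, and 400, 254, 286, 197 and 172 in SH. The highest libraries of control and SH, control 4 and SH 1, were also those with the most choroid plexus markers of all 14. The log2 fold change was -0.61 (SE 0.25, adjusted p = 0.114) in IH and -0.20 (SE 0.25, adjusted p = 0.584) in SH. With the choroid plexus marker level as a covariate, the IH value was -0.71 and passed (adjusted p = 0.0414). By RT-qPCR the paper reported no significant effect of exposure on Sod3, and its means in IH and SH were above that of control. Sod1, the cytosolic enzyme, had 2516 ± 78.2 normalized counts in the control mice, 2348 ± 129 in IH and 2307 ± 140.0 in SH, with log2 fold changes of -0.10 (SE 0.058, adjusted p = 0.252) and -0.12 (SE 0.058, adjusted p = 0.133). With the trends removed both passed (-0.22, adjusted p = 0.0407, and -0.28, adjusted p = 0.0131). Sod1 has 1 near-identical copy, and the canonical transcript used in that correction is 5315 bases long.

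Heme oxygenase and quinone reductase were represented by Hmox2 and Nqo1, and neither passed (0 of 2 by edgeR and by DESeq2, with an unadjusted p under 0.05 for 0 in IH and 1 in SH). Hmox2, the constitutive heme oxygenase, had 1199 ± 78.6, 1167 ± 54.2 and 1044 ± 79.9 normalized counts in the control mice, IH and SH. Its log2 fold change was -0.039 (SE 0.070, adjusted p = 0.734) in IH and -0.20 (SE 0.070, adjusted p = 0.0546) in SH, and the SH value passed under 80th percentile scaling, with the trends removed, and without control 4, IH 3 or SH 4 (-0.28 to -0.20, adjusted p = 0.0376 to 0.049). Hmox2 shares annotated sequence with Cdip1, so that its counts are uncertain. Nqo1, the textbook NRF2 target that reduces quinones, was low and uneven, with 71.0, 60.8, 65.8 and 152 normalized counts in the control mice, 58.5, 61.2, 90.6, 112 and 77.5 in IH, and 148, 103, 38.9, 57.5 and 64.7 in SH. The highest library of each group, control 4, IH 4 and SH 1, was also the highest of its group in choroid plexus markers, whereas IH 1, with a marker sum of 68416, had the lowest Nqo1 of its group. Against control, the log2 fold change was -0.12 (SE 0.36, adjusted p = 0.84) in IH and -0.068 (SE 0.36, adjusted p = 0.915) in SH and a difference of this size was not detectable against the spread between libraries. Hmox1, Sod2, Cat, Gclm, Gss, Srxn1, Fth1 and Nqo2 were not analysed here, and nothing follows about their levels or changes.

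**Figure D3:**
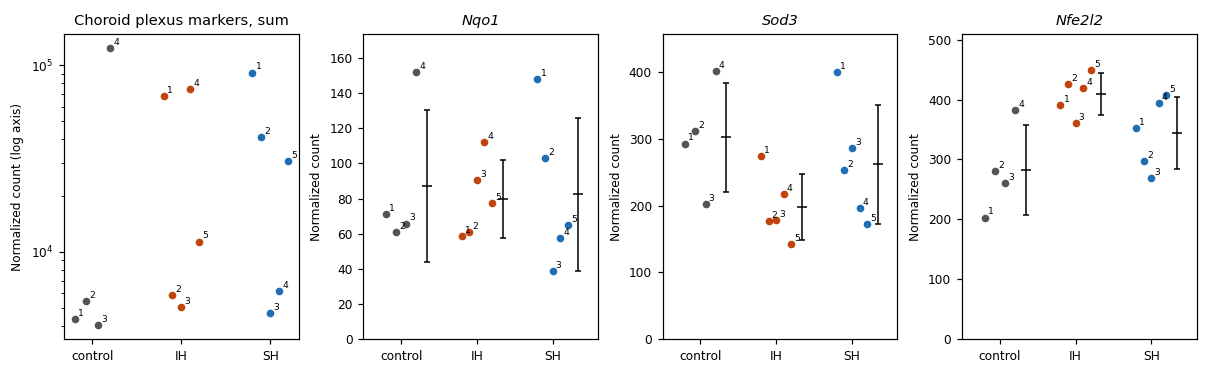
The first panel gives the summed normalized count of 12 choroid plexus markers on a log axis, and the others give Nqo1, Sod3 and Nfe2l2 on linear axes from 0. Each panel has 1 numbered point per library, and the linear panels also have group means with 1 SD in black. Control 4 is the highest control in all 4 panels, and SH 1 is the highest SH library in the first 3.

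Of the 4 iron storage and metal-binding genes, Ftl1, Mt1 and Mt3 fell in SH, and none of these calls held with the GC and length trends removed. Mt2 had a log2 fold change of -0.26 in SH (SE 0.11, adjusted p = 0.0938). All 4 had a negative sign in both comparisons on the counts as deposited, with 75.0% called in SH and 25.0% in IH, beside 20.6% and 10.9% of all genes. Ftl1, at chr7:45107367-45109308 (minus strand), encodes the ferritin light chain, which stores iron. Its normalized counts were 4595, 4602, 4755 and 4530 in control, 3990, 3994, 4607, 4531 and 4372 in IH, and 3978, 3163, 3636, 3615 and 3384 in SH. Every SH library was below every control and IH library, and IH overlapped the controls. On the log2 scale the change was -0.38 (SE 0.066, adjusted p = 0.00199) in SH and -0.10 (SE 0.066, adjusted p = 0.297) in IH. The SH call held with each library left out and was lost without the 6 choroid-rich libraries (-0.35, adjusted p = 0.0868) and once the trends were removed (-0.15, adjusted p = 0.0813), where the IH value turned to 0.076. Ftl1 has 8 near-identical copies in the genome, so that its counts are uncertain.

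The metallothioneins bind zinc and copper and scavenge radicals, and Mt3 is the brain form. Mt3 had 4171, 4309, 4497 and 3919 normalized counts in the control mice, 3068, 3339, 4040, 3044 and 3196 in IH, and 3273, 3260, 3280, 3149 and 4093 in SH. In each hypoxia group 4 of 5 libraries were below all controls, with IH 3 and SH 5 within the control range. The fitted log2 fold change was -0.34 (SE 0.090, adjusted p = 0.0259) in IH and -0.31 (SE 0.090, adjusted p = 0.026) in SH. The IH call was lost without control 1, 2 or 3 or IH 1, 4 or 5 (-0.35 to -0.30, adjusted p = 0.0523 to 0.0714), and the SH call without control 1, 2 or 3 or SH 2, 3 or 4 (-0.31 to -0.28, adjusted p = 0.0509 to 0.0657). After removal of the trends, the values were -0.15 (adjusted p = 0.252) and -0.057 (adjusted p = 0.701).

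Mt1, a metal-induced form found in glia, had 3146 ± 178 normalized counts in the control mice, 2832 ± 585 in IH and 2475 ± 138 in SH. Its SH libraries, 2330 to 2639, were below all controls, 2961 to 3364, whereas IH spanned 2075 to 3571. The log2 fold change was -0.35 (SE 0.12, adjusted p = 0.0454) in SH and -0.15 (SE 0.12, adjusted p = 0.383) in IH. In SH the call was lost without any 1 of the controls or SH libraries, or IH 4 (-0.37 to -0.31, adjusted p = 0.0551 to 0.102), and with the trends removed (-0.13, adjusted p = 0.471), where the IH value turned to 0.024. Mt2 had -0.22 (SE 0.11, adjusted p = 0.176) in IH and -0.26 (SE 0.11, adjusted p = 0.0938) in SH.

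The methionine sulfoxide reductases, which repair oxidized methionine, gave no call (0 of 3 by edgeR and by DESeq2, with an unadjusted p under 0.05 for 0 in IH and 1 in SH). Msrb2, the mitochondrial form and the most abundant, had log2 fold changes of -0.07 (SE 0.10, adjusted p = 0.663) and -0.20 (SE 0.10, adjusted p = 0.163).

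Selenoproteins carry selenocysteine, which the ribosome inserts at a TGA codon that otherwise ends translation. A selenocysteine codon was annotated in 14 of the 57 members, spread over 4 roles, and Selenbp1, a selenium-binding protein, has none. Of these 14, 2 rose and 0 fell in IH, and 2 rose and 2 fell in SH, or 14.3% and 28.6%, near the 10.9% and 20.6% of all genes that passed. The 5 below are those that passed, shown to tell the genes that carry the codon near the start of the protein from those that carry it near the end. Each is mRNA-sense coding sequence from GRCm39, with the TGA in capitals (the first of 10 in Selenop).
Selenow (codon 13 of 88, chr7:15654389-15654391, minus strand): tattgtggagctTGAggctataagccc
Selenot (codon 49 of 195, chr3:58492659-58492661, plus strand): atttgtgtatccTGAgggtaccggcgg
Selenop (codon 59 of 380, chr15:3304330-3304332, plus strand): cttcaagccagcTGAtacttgtgtctt
Selenoi (codon 388 of 398, chr5:30471962-30471964, plus strand): ccaaactcagatTGActaggaatggaa
Selenoo (codon 665 of 667, chr15:88984178-88984180, plus strand): ctctgtgtaacaTGAtcctca
Selenow, with an early codon, and Selenoo, with a late one, both fell in SH, while Selenot, with an early codon, and Selenoi, with a late one, both rose.

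Selenow, a small redox protein abundant in brain and muscle, had the highest level of all members, 15126 normalized counts per kb of transcript in control, ahead of Mt3 (4883), Ftl1 (4768) and Mt1 (4128) on the same scale. In single libraries the normalized counts were 10171, 11718, 11646 and 10994 in control, 8653, 9350, 11835, 9047 and 9386 in IH, and 8076, 6419, 7221, 7991 and 7611 in SH. Every SH library was below every other library, and 4 of 5 IH libraries were below all controls, with IH 3 above them. Against control, the log2 fold change was -0.58 (SE 0.091, adjusted p = 9.83e-04) in SH, the largest fall among the members there on the counts as deposited, and -0.21 (SE 0.091, adjusted p = 0.143) in IH. The SH call held with each library left out and after the trends were removed (-0.34, adjusted p = 0.00512, where Mgst3 fell more, by 0.47), and was lost without the 6 choroid-rich libraries (-0.55, adjusted p = 0.0813). The IH value passed without IH 3 (-0.29, adjusted p = 0.0225).

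Selenot, a thioredoxin-like protein of the endoplasmic reticulum, had 3200, 3692, 4027 and 3460 normalized counts in the control mice, 4346, 4019, 4366, 4397 and 4193 in IH, and 3756, 4201, 4307, 4419 and 4125 in SH. All hypoxia libraries but IH 2 and SH 1 were above all controls. On the log2 scale the change was 0.25 (SE 0.067, adjusted p = 0.0281) in IH and 0.21 (SE 0.067, adjusted p = 0.0371) in SH. The IH call was lost without control 1, 2 or 4 or IH 1 or 4 (0.19 to 0.26, adjusted p = 0.0526 to 0.0954), and the SH call without control 1, 2 or 4 or SH 2, 3, 4 or 5 (0.16 to 0.22, adjusted p = 0.057 to 0.12). With the trends removed the values were 0.041 (adjusted p = 0.658) and -0.016 (adjusted p = 0.872), so that the SH sign turned.

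Selenop, the secreted selenium carrier that supplies the brain, had 3451, 3554, 4133 and 3681 normalized counts in the control mice, 4317, 4283, 4876, 4494 and 5081 in IH, and 4880, 4275, 3728, 4464 and 4235 in SH. All IH libraries were above all controls. The fitted log2 fold change was 0.32 (SE 0.080, adjusted p = 0.0207) in IH and 0.22 (SE 0.079, adjusted p = 0.0603) in SH. The IH call was lost without control 1, 2 or 4 (0.28 to 0.31, adjusted p = 0.0507 to 0.0703) and once the trends were removed (0.12, adjusted p = 0.435). The SH value passed in DESeq2, under library total scaling, and without control 3 or SH 3 (0.23 to 0.28, adjusted p = 0.0268 to 0.0413).

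Selenoi, an ethanolamine phosphotransferase of phospholipid synthesis, had 1345 ± 64.9 normalized counts in the control mice, 1531 ± 83.1 in IH and 1642 ± 97.2 in SH. The SH libraries, 1476 to 1717, were above all controls, 1274 to 1418. The log2 fold change was 0.29 (SE 0.063, adjusted p = 0.00667) in SH and 0.19 (SE 0.063, adjusted p = 0.0682) in IH. The SH call held with each library left out and was lost with the trends removed (0.11, adjusted p = 0.209). The IH value passed without IH 4 or SH 1 (0.22, adjusted p = 0.0496, and 0.19, adjusted p = 0.0476).

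Selenoo, a mitochondrial enzyme that attaches AMP to proteins, had 560, 493, 419 and 440 normalized counts in the control mice, 433, 397, 485, 387 and 393 in IH, and 383, 371, 396, 397 and 299 in SH. All SH libraries were below all controls. Against control, the log2 fold change was -0.37 (SE 0.11, adjusted p = 0.0267) in SH and -0.19 (SE 0.11, adjusted p = 0.251) in IH. The SH call was lost without control 1 or 2 or SH 5 (-0.36 to -0.29, adjusted p = 0.0585 to 0.102) and once the trends were removed (-0.19, adjusted p = 0.274). Selenoh, Selenom and Selenos did not pass.

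Between the hypoxia groups, which come from 1 experiment but differ in apparatus, Ftl1 and Selenow were higher in IH than in SH. The log2 difference was 0.27 for Ftl1 (SE 0.063, adjusted p = 0.0335) and 0.37 for Selenow (SE 0.086, adjusted p = 0.0345). Of the 5 IH libraries all were above all SH libraries for both genes. With the GC and length trends removed the differences were 0.22 (adjusted p = 0.0154) and 0.33 (adjusted p = 0.00678). The Ftl1 call was lost without control 2, IH 3, 4 or 5, or SH 2, 3, 4 or 5 (0.24 to 0.28, adjusted p = 0.0509 to 0.0917), and the Selenow call without control 2, IH 2, 3 or 4, or SH 2, 3, 4 or 5 (0.29 to 0.40, adjusted p = 0.0507 to 0.085) and with the replicate number as a block (0.36, adjusted p = 0.0502). Fitted on the IH and SH libraries alone, 0 members passed with edgeR, and 10 had an unadjusted p under 0.05. That fit called 64 of all genes. DESeq2 over all groups called 4 members and 300 of all genes.

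The members that rose were lower in GC content than those that fell in both groups, and their lengths did not overlap in IH and overlapped in SH. In IH the 3 that rose had canonical transcripts of 3593 to 5782 bases with 39.05% to 46.51% GC, and the 4 that fell had 631 to 2929 bases with 49.96% to 58.38% GC. In SH the 4 that rose had 2835 to 6803 bases and 39.05% to 48.32% GC, and the 9 that fell had 736 to 2929 bases and 49.96% to 58.38% GC. For all genes that passed, the median GC content differed in the same direction, at 44.3% for those higher and 57.0% for those lower in IH, and 44.0% and 57.6% in SH. Of the 33 members with at least 50% GC, 6 had a positive sign in IH and 7 in SH, or 18.2% and 21.2%, beside 30.5% and 31.1% of all genes with such GC content. Of the 21 members under 50% GC, 13 and 11 had a positive sign, or 61.9% and 52.4%, beside 69.9% and 73.6%. Hypoxia and experiment cannot be told apart in this division. After the trends were removed, the members that passed were Gstm1, Mgst3 and Sod1 in IH and Gstp1, Hmox2, Mgst3, Selenow and Sod1 in SH.

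**Figure D4:**
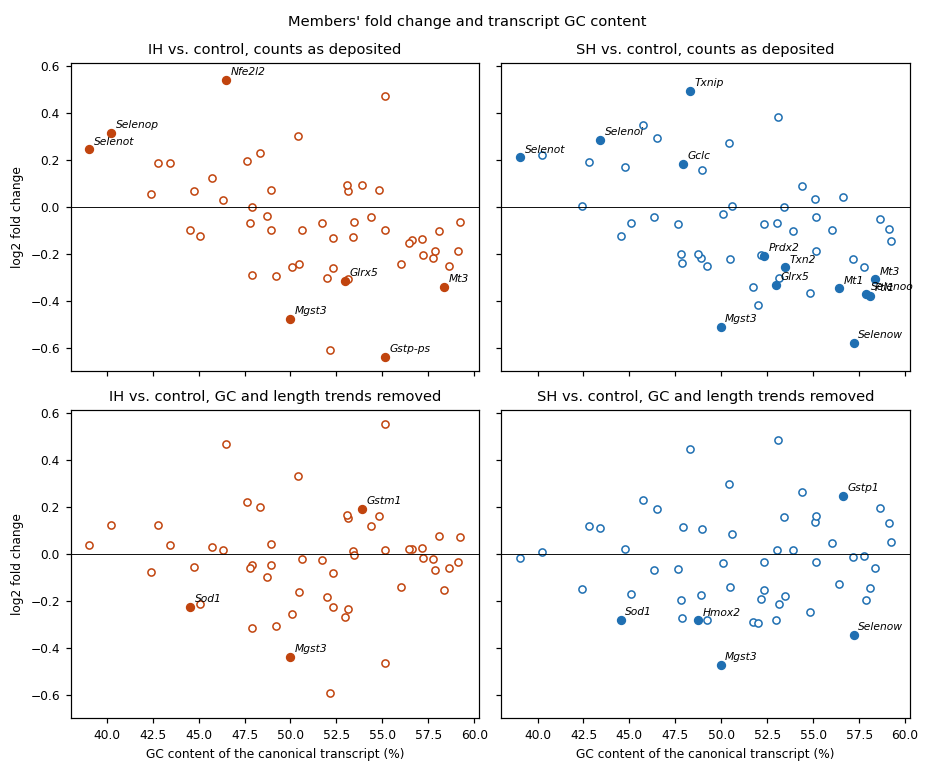
Each panel plots the log2 fold change against control (y axis) of the 54 members against the GC content of their canonical transcript in percent (x axis), for IH on the left and SH on the right. The top row uses the counts as deposited and the bottom row has the GC and length trends removed. Filled, named points have an adjusted p under 0.05, and Mgst3 is filled in all 4 panels.

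The antioxidant response element core that NRF2 binds, TGACNNNGC on either strand, was looked for in the 250 bases before the annotated start of the canonical transcript of each protein-coding member, which can lie inside the gene where other transcripts start earlier, as in Txnrd1 and Prdx1. It was present in 5 of 56, or 8.93%, beside 9.68% of all protein-coding genes and 10.4% of the genes of the table. The 5 were Txnrd1, Gsta3, Gstm5, Sod1 and Prdx1, of which 4 were tested and none passed on the counts as deposited, by edgeR or DESeq2. Of the members that passed, Gstp-ps, a pseudogene, was not searched, and the others lacked the core in this window, which says only that these letters are absent there. The promoters of a thioredoxin reductase and a peroxiredoxin known as NRF2 targets are printed because they hold the core, with it in capitals (GRCm39, plus strand).
Txnrd1 (chr10:82694763-82695012): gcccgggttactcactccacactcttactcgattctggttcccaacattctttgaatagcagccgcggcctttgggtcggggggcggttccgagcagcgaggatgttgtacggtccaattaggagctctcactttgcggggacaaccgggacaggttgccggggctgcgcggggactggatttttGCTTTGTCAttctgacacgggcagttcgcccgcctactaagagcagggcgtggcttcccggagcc
Prdx1 (chr4:116542491-116542740): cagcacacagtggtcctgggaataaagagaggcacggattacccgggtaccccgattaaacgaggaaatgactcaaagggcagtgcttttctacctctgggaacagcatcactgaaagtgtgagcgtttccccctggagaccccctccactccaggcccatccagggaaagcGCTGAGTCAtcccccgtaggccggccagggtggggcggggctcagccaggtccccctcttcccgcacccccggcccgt
Txnrd1 had 1232, 1217, 1109 and 1307 normalized counts in the control mice, 1334, 1233, 1220, 1253 and 1345 in IH, and 1251, 1372, 1372, 1371 and 1415 in SH. In SH 4 of 5 libraries were above all controls, with a log2 fold change of 0.16 (SE 0.063, adjusted p = 0.0875). In IH the value was 0.071 (SE 0.063, adjusted p = 0.459). Prdx1, which has 3 near-identical copies, had 0.054 (SE 0.080, adjusted p = 0.68) in IH and 0.004 (SE 0.080, adjusted p = 0.979) in SH.

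Genes of the same pathways that are not members were read from 5 lists, whose counts stand beside the 10.9% of all genes that passed in IH and 20.6% in SH. No call of a gene named from these lists held without the 6 choroid-rich libraries, a fit on 3 control, 3 IH and 2 SH libraries in which few genes of the table passed. In the comparisons where these genes had passed, the values kept their direction there, as for Park7 (-0.42 between IH and SH), Blvrb (-0.71 in SH) and Acsl4 (0.34 in SH). The differences between IH and SH of Cp, Ireb2 and Trnau1ap, which had not passed, changed sign. Of 7 regulators of KEAP1 and NRF2, 0 passed in IH (edgeR and DESeq2, 2 at an unadjusted p under 0.05) and 2 rose in SH. Park7, which encodes DJ-1, a redox-sensitive protein that stabilizes NRF2, had 1850, 1917, 1862 and 1652 normalized counts in the control mice, 1532, 1520, 1803, 1611 and 1556 in IH, and 2100, 1969, 2040, 2311 and 2136 in SH. Every SH library was above every other, with a log2 fold change of 0.21 (SE 0.068, adjusted p = 0.0379) in SH and -0.18 (SE 0.068, adjusted p = 0.0885) in IH. The difference between IH and SH was -0.40 (SE 0.064, adjusted p = 0.00695), and it held with each library left out and with the trends removed (-0.44, adjusted p = 2.47e-04). The SH value against control was 0.42 with the trends removed (adjusted p = 4.43e-04), and the call was lost without control 1, 3 or 4 or SH 4 or 5 (0.17 to 0.23, adjusted p = 0.0532 to 0.114), and the IH value passed without IH 3 (-0.23, adjusted p = 0.0307). Btrc, part of another ubiquitin ligase for NRF2, rose in SH by a log2 fold change of 0.18 (SE 0.061, adjusted p = 0.0499), which was lost without any 1 of 12 of the 14 libraries, IH 3 and SH 1 excepted (0.16 to 0.20, adjusted p = 0.0543 to 0.116).

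Of 15 further NRF2 targets and enzymes of NADPH supply, 0 passed in IH (edgeR and DESeq2, 4 at an unadjusted p under 0.05) and 2 fell in SH. Blvrb, a biliverdin reductase, had a log2 fold change of -0.62 in SH (SE 0.17, adjusted p = 0.0212), lost without control 2 (-0.55, adjusted p = 0.0691) and once the trends were removed (-0.42, adjusted p = 0.177). Cbr1, a carbonyl reductase, had -0.27 (SE 0.079, adjusted p = 0.026), lost without control 1, 2 or 3 or SH 2 or 4 (-0.28 to -0.22, adjusted p = 0.0516 to 0.0967) and once the trends were removed (-0.17, adjusted p = 0.162). Of 9 genes of glutathione turnover 0 passed in any comparison by edgeR or DESeq2, and 0 had an unadjusted p under 0.05.

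Of 6 genes of selenoprotein synthesis, 1 fell in both groups. Trnau1ap, which binds the selenocysteine tRNA, had 318, 287, 318 and 305 normalized counts in the control mice, 225, 232, 270, 228 and 249 in IH, and 271, 210, 207, 255 and 268 in SH. No hypoxia library reached the lowest control. On the log2 scale the change was -0.35 (SE 0.11, adjusted p = 0.0457) in IH and -0.34 (SE 0.11, adjusted p = 0.0346) in SH. The calls were lost in 9 and 7 of the 14 fits without 1 library, among them each without any 1 of the 4 controls (IH 1, 2, 4 and 5 and SH 4 in IH, SH 2, 3 and 4 in SH), with values of -0.38 to -0.33 (adjusted p = 0.0553 to 0.115) and -0.37 to -0.29 (adjusted p = 0.0501 to 0.0914). After removal of the trends, they were -0.23 (adjusted p = 0.182) and -0.20 (adjusted p = 0.252).

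Of 9 genes of iron handling and lipid peroxidation, 2 rose and 1 fell in IH, and 2 rose in SH. Ireb2, the iron regulatory protein that represses ferritin translation, had 1591, 1603, 1806 and 1649 normalized counts in the control mice, 1944, 1987, 2022, 1896 and 1953 in IH, and 1929, 2112, 1945, 1913 and 2018 in SH. Every hypoxia library was above every control, with log2 fold changes of 0.24 (SE 0.054, adjusted p = 0.0129) and 0.25 (SE 0.054, adjusted p = 0.0057). Both held with each library left out, and neither passed with the trends removed (0.033, adjusted p = 0.738, and 0.027, adjusted p = 0.781) or without the 6 choroid-rich libraries (0.26, adjusted p = 0.139, and 0.22, adjusted p = 0.2).

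Acsl4, which activates the polyunsaturated fatty acids that are oxidized in ferroptosis, rose in SH (0.34, SE 0.088, adjusted p = 0.016) and had 0.28 in IH (SE 0.088, adjusted p = 0.0508). This SH call was lost without control 1 (0.31, adjusted p = 0.0527) and once the trends were removed (0.12, adjusted p = 0.403), and the IH value passed under 10 alternatives, DESeq2 and the fits without control 3, IH 5, SH 2 or SH 5 among them (0.28 to 0.33, adjusted p = 0.0178 to 0.0494). Cp, the ferroxidase ceruloplasmin, rose in IH (0.51, SE 0.16, adjusted p = 0.0463), a call lost without control 1, 2 or 3, IH 1, 3, 4 or 5, or SH 1 or 4 (0.39 to 0.55, adjusted p = 0.0515 to 0.135) and once the trends were removed (0.36, adjusted p = 0.19). Lpcat3, which loads such fatty acids into phospholipids, fell in IH (-0.29, SE 0.087, adjusted p = 0.0446) and was lower in IH than in SH (-0.41, SE 0.083, adjusted p = 0.0194). Its fall was lost without any 1 of the controls, IH 1, 2, 4 or 5, or SH 3, 4 or 5 (-0.33 to -0.25, adjusted p = 0.052 to 0.131) and once the trends were removed (-0.24, adjusted p = 0.0844). Its difference between IH and SH was lost without IH 1 or 2 (-0.38, adjusted p = 0.0512 and 0.051) and in the fit on those groups alone (-0.40, adjusted p = 0.0579).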

How the data were processed

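Hippocampal poly(A) RNA of 14 mice was sequenced as stranded paired-end libraries. The authors trimmed the reads with fastp 0.23.4, aligned them to GRCm39 with HISAT2 2.2.1 and deposited 1 table of estimated counts per gene. StringTie 2.2.1 is listed in the submitters' processing notes, and the annotation is not given in the sources used here. In 10 genes some values held decimals and were rounded to whole counts. Every row names a gene. By the methods, the table was cut to protein-coding genes above a count of 40 in each group. Their processed signal (log2, 80th percentile scaling, relative to control) had to reach 0.25 in size. The table was thus selected in part on the distance from control, and the adjusted p-values hold within that selection. It still holds Gstp-ps, a processed pseudogene in the annotation used here.

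Counts were fitted with edgeR 4.0.16 (R 4.3.3; TMM scaling, quasi-likelihood F test, all 3 groups in 1 fit) over the 7338 genes whose mean reached 40 in all 3 groups, the low-signal limit of the study, which not every gene of the table met, and p-values were adjusted by Benjamini-Hochberg over all of them. A call is an adjusted p under 0.05, two-sided. Standard errors were obtained by dividing each log2 fold change by the square root of F. The scripts were tested on simulated data with 200 changed genes. The methods name no test for these p-values. The p-values measure the spread between these libraries, each from its own mouse as far as the labels say.

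Alternatives were DESeq2 1.42.0, 80th percentile and library total scaling, other filters, fits on 2 groups, a replicate block, removal of the GC and length trends, a choroid plexus covariate, the study's limits, each library left out and, added after seeing the data, the 6 choroid-rich libraries left out. Transcript length, GC content, coordinates and sequences came from GENCODE vM39 on GRCm39, and all 57 members matched. A copy is a gene at 95% identity or more over at least 50% of the coding sequence. Between libraries of a group the counts differed by more than sampling noise (a chi-square of at least 8.96 per degree of freedom over 26 pairs), so none was counted as a duplicate. Same-numbered libraries of different groups gave correlations of -0.30 to 0.46, over 0.1 in 6 of 13 pairs, so that the numbers were not taken to pair them.

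The members and lists were chosen with earlier results of these data known. Named members were those that passed in any comparison, the axis genes, Sod3, the most abundant member of each role and those under the filter. Gstp1, the promoter examples and the other members given a value were named after their values were seen. From the lists of other pathway genes, up to 3 genes per comparison that passed were named.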

Additional observations from a re-analysis of the deposited data

Results flagged for a closer look

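In 8 of 99 checks of a named gene within a group, 1 library stood apart from the others, and chance alone gives about 1 in 20. Keap1 was high in control replicate 1 (1728 normalized counts, others 1540 to 1551) and in SH replicate 1 (1604, others 1374 to 1427). Gclc was high in control replicate 3 (1312, others 1186 to 1201). Mt3 was high in SH replicate 5 (4093, others 3149 to 3280). Selenoo was low in SH replicate 5 (299, others 371 to 397). Selenow was high in IH replicate 3 (11835, others 8653 to 9386). Among the other pathway genes, Btrc was low in IH replicate 3 (1863, others 2071 to 2137) and Cp was high in IH replicate 1 (568, others 368 to 413).

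The difference from control was not the same in IH and SH for 4 named genes, by the test of IH against SH (edgeR, 7338 genes). Ftl1 (0.27, adjusted p = 0.0335) and Selenow (0.37, adjusted p = 0.0345) were higher in IH, and Lpcat3 (-0.41, adjusted p = 0.0194) and Park7 (-0.40, adjusted p = 0.00695) were higher in SH, in each case with all 5 libraries of one group above all 5 of the other.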

How the results depend on the processing

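With the trends removed 3, 5 and 4 members passed in IH vs. control, SH vs. control and IH vs. SH, against 7, 13 and 2 (445, 505 and 224 of all genes, against 802, 1514 and 174), and the medians of the first pair were -0.02 and -0.033. Without the 6 choroid-rich libraries 0, 0 and 0 passed (edgeR, 11, 9 and 6 at an unadjusted p under 0.05), with fewer samples in the fit. By the study's limits 2, 0 and 1 passed. With 1 library left out the counts ran from 1 to 11 (1 without control 1 or 2, 11 without IH 3), 4 to 16 (4 without control 2, 16 without IH 3) and 0 to 3. In IH vs. SH, DESeq2 called 4, the fit on those 2 groups 0 and the replicate block 1. The replicate block, whose numbers do not pair the libraries, called 6 and 11 members in the comparisons with control (738, 1443 and 148 of all genes in the 3 comparisons), and ended the calls of Glrx5, Lpcat3 and Trnau1ap in IH (adjusted p = 0.0565 to 0.0913), of Gclc, Txn2, Selenoo, Btrc and Park7 in SH (adjusted p = 0.0503 to 0.0697) and of Selenow in IH vs. SH (adjusted p = 0.0502). Beside the losses given with each gene, calls ended for Gclc, Txnip, Selenot, Btrc and Park7 in SH under 80th percentile scaling, for Glrx5 and Lpcat3 in IH and Prdx2, Txn2 and Mt1 in SH under library total scaling, for Trnau1ap in IH and Txn2 and Mt1 in SH without a filter, for Cp in IH and Btrc in SH with filterByExpr, for Glrx5 and Lpcat3 in IH and Gclc, Prdx2, Selenot, Btrc and Trnau1ap in SH and Lpcat3 in IH vs. SH on 2 groups, and with the choroid plexus covariate for Glrx5, Cp, Lpcat3 and Trnau1ap in IH and Prdx2, Txn2, Txnip, Mt1, Btrc and Trnau1ap in SH. DESeq2 ended none of the named calls. The cause was not tested. Of 2376 values of named genes under an alternative, 2011 kept their direction and side of the threshold, 275 lost it, 41 gained it and 49 changed sign.

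Of the values that changed sign, Selenot in SH vs. control was the only one that had passed. With the trends removed they were 0.072 for Keap1, -0.045 for Gclc, 0.025 for Gpx1, -0.053 for Txndc16, 0.076 for Ftl1 and 0.024 for Mt1 in IH vs. control, 0.051 for Keap1, 0.02 for Gstm1, 0.163 for Gstp-ps and -0.016 for Selenot in SH vs. control, and 0.005 for Ireb2 in IH vs. SH. Gclc in IH vs. control was -0.01 under 80th percentile scaling, -0.006 with filterByExpr and -0.013 under the replicate block, and Btrc was -0.002 under the first and the last of these. Gstp-ps in SH vs. control was 0.005 with the choroid plexus covariate and 0.066 without the choroid-rich libraries. Without those libraries, IH vs. SH gave -0.126 for Glrx5, 0.131 for Mt3, -0.059 for Selenot, -0.205 for Cp, 0.042 for Ireb2 and 0.115 for Trnau1ap. With 1 library left out, Gclc ran from -0.014 to 0.039, Msrb2 from -0.129 to 0.001 and Btrc from -0.013 to 0.043 in IH vs. control, Gstp-ps from -0.102 to 0.04 in SH vs. control, and Mgst3 from -0.05 to 0.10, Glrx5 from -0.024 to 0.07, Sod1 from -0.003 to 0.062, Mt3 from -0.11 to 0.043, Ireb2 from -0.03 to 0.007 and Trnau1ap from -0.061 to 0.035 in IH vs. SH. With 4 or 5 libraries a group, Nqo1 and Gpx3 had standard errors of 0.32 to 0.36 against control. Txnrd3 and Mgst1, at similar counts, had 0.18. Gpx3 was high in IH 5 (221 normalized counts, others 65.6 to 118) and Nqo1 in control 4 (152, others 60.8 to 71.0).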
